A study of Mus musculus with 24 samples.

Results

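Adipokines are proteins that fat tissue releases into the blood or to its own cells. The 7 adipokine genes other than leptin described here were Adipoq, Retn, Cfd, Rbp4, Nampt, Rarres2 and Apln, taken from the tables by gene symbol. All 7 were found among the 56895 entries of the deposited tables, and all 7 passed the filter on low values in each comparison. They were measured by RNA-seq of polyadenylated RNA in retroperitoneal white fat of 24 C57BL/6J mice, 3 in each of 8 groups. Mothers received a control diet (CTRL, 1.0 IU vitamin D3 per g) or a diet without vitamin D3 (VDD, 0.0 IU per g) for at least 8 weeks before mating and throughout gestation, and every mother ate the control diet from birth to weaning. Offspring of both sexes then ate a low-fat diet (LF) or a high-fat diet (HF, 45% of energy from fat) from 6 weeks of age for 8 weeks. The 8 groups were therefore CTRL LF, CTRL HF, VDD LF and VDD HF males and the same 4 combinations in females. All groups shared the strain, the control diet of the mothers during lactation, litters reduced in size and an overnight fast before sampling. The sources used here do not give the litter, so p-values measure the spread between these mice, some of which may be littermates.

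Adiponectin (Adipoq) is a hormone of mature adipocytes that raises fatty acid oxidation and insulin sensitivity through the receptors Adipor1 and Adipor2. Resistin (Retn) is, in mice, a hormone of adipocytes that opposes insulin action. Retinol-binding protein 4 (Rbp4) carries retinol in the blood, and adipsin (Cfd), complement factor D, is the protease that cleaves factor B in the alternative complement pathway. Nampt, also called visfatin, is the rate-limiting enzyme of NAD synthesis from nicotinamide and is also found outside cells. Chemerin (Rarres2) attracts immune cells and acts on adipocytes through Cmklr1, and apelin (Apln) is a peptide that acts on vessels and metabolism through its receptor Aplnr.

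In GENCODE M21 on GRCm38, the same sequence as mm10, which the submitters' processing notes name, the 7 protein-coding genes lie on separate chromosomes. Adipoq is at chr16:23146536-23158028 on the plus strand, Retn at chr8:3655770-3660110 on the plus strand, Cfd at chr10:79890853-79892655 on the plus strand and Rbp4 at chr19:38116629-38125281 on the minus strand. Nampt is at chr12:32819545-32853349 on the plus strand, Rarres2 at chr6:48569696-48572789 on the minus strand and Apln at chrX:48025146-48034853 on the minus strand. Nampt overlaps the lincRNA Gdap10 on its own strand, with 22 to 268 scaled reads per library, and Rarres2 overlaps Lrrc61 on the opposite strand, with 214 to 375. No source used here gives the strand setting of the read counting, so reads of such overlaps could be shared or lost. The other 5 genes overlap no annotated gene.

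Because Cfd, Nampt and Apln changed with the offspring diet while Adipoq showed no detectable change, the 250 bases before the start of each of the 4 genes are shown for comparison, from RefSeq on GRCm38.p6, 5′ to 3′ on the strand of the gene. The windows are chr10:79890603-79890852 (plus) for Cfd, chr12:32820085-32820334 (plus) for Nampt, chrX:48034854-48035103 (minus) for Apln and chr16:23146286-23146535 (plus) for Adipoq. Capitals mark matches to CCAAT, to TATAAA, to the E-box CACGTG and to the nuclear receptor half-site AGGTCA, each searched on both strands. The Nampt window lies inside the annotated span of the gene, outside its annotated exons.
Cfd: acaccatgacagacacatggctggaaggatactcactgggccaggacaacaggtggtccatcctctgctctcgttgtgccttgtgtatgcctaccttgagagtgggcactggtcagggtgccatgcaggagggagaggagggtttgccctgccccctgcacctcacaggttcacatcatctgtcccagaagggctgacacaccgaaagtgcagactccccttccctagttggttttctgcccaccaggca
Nampt: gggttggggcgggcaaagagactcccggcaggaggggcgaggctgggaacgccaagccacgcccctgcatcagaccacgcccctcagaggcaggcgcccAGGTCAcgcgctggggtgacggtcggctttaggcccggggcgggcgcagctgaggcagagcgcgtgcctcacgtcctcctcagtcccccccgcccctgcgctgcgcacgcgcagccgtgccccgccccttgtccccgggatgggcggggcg
Apln: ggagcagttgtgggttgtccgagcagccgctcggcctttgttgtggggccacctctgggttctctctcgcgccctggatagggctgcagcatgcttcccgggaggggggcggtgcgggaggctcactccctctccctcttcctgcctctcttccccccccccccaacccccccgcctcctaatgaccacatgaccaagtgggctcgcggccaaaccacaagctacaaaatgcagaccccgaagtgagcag
Adipoq: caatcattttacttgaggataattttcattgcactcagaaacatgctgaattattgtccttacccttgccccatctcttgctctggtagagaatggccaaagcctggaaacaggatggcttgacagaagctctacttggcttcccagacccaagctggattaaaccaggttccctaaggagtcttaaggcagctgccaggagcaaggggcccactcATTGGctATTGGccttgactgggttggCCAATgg
The Adipoq window held 3 CCAAT matches, a motif found in 33.9% of 32851 RefSeq promoter windows of that length. The Nampt window held 1 AGGTCA match, present in 14.0% of windows. None of the 4 motifs was in the Cfd or the Apln window, and TATAAA (12.4% of windows) and CACGTG (6.02%) were in none of the 4. These are matches of letters and not measured binding sites.

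Each library had 13346779 to 18484346 reads on genes, with a median of 15933506. Reads were scaled so that libraries could be compared, and the unit below is scaled reads. The 8 white adipocyte markers (Plin1, Fabp4, Cidec, Lipe, Pnpla2, Plin4, Aqp7, Slc2a4) were seen in every library, with summed levels from 258898 to 828965. Some libraries stood apart. Markers of 12 other cell types or tissues were checked. Skeletal muscle genes reached a sum of 895675 in VDD LF male 2310 against a median of 1341, and 9 libraries had over 1000 scaled reads of the muscle gene Ckm. Kidney genes summed to 5650 in VDD LF female 2303 and to at most 18.2 in the others. In addition 6 libraries, none from HF females, have the word renal in their names. The results called for the 7 genes, and those of the named partner genes, are given with and without these libraries where a call was lost. Without the 9 libraries rich in Ckm, VDD LF male 2078 and VDD HF male 2308 are the only mice left of their groups. Calls kept or lost in that fit rest on few mice.

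**Figure D1:**
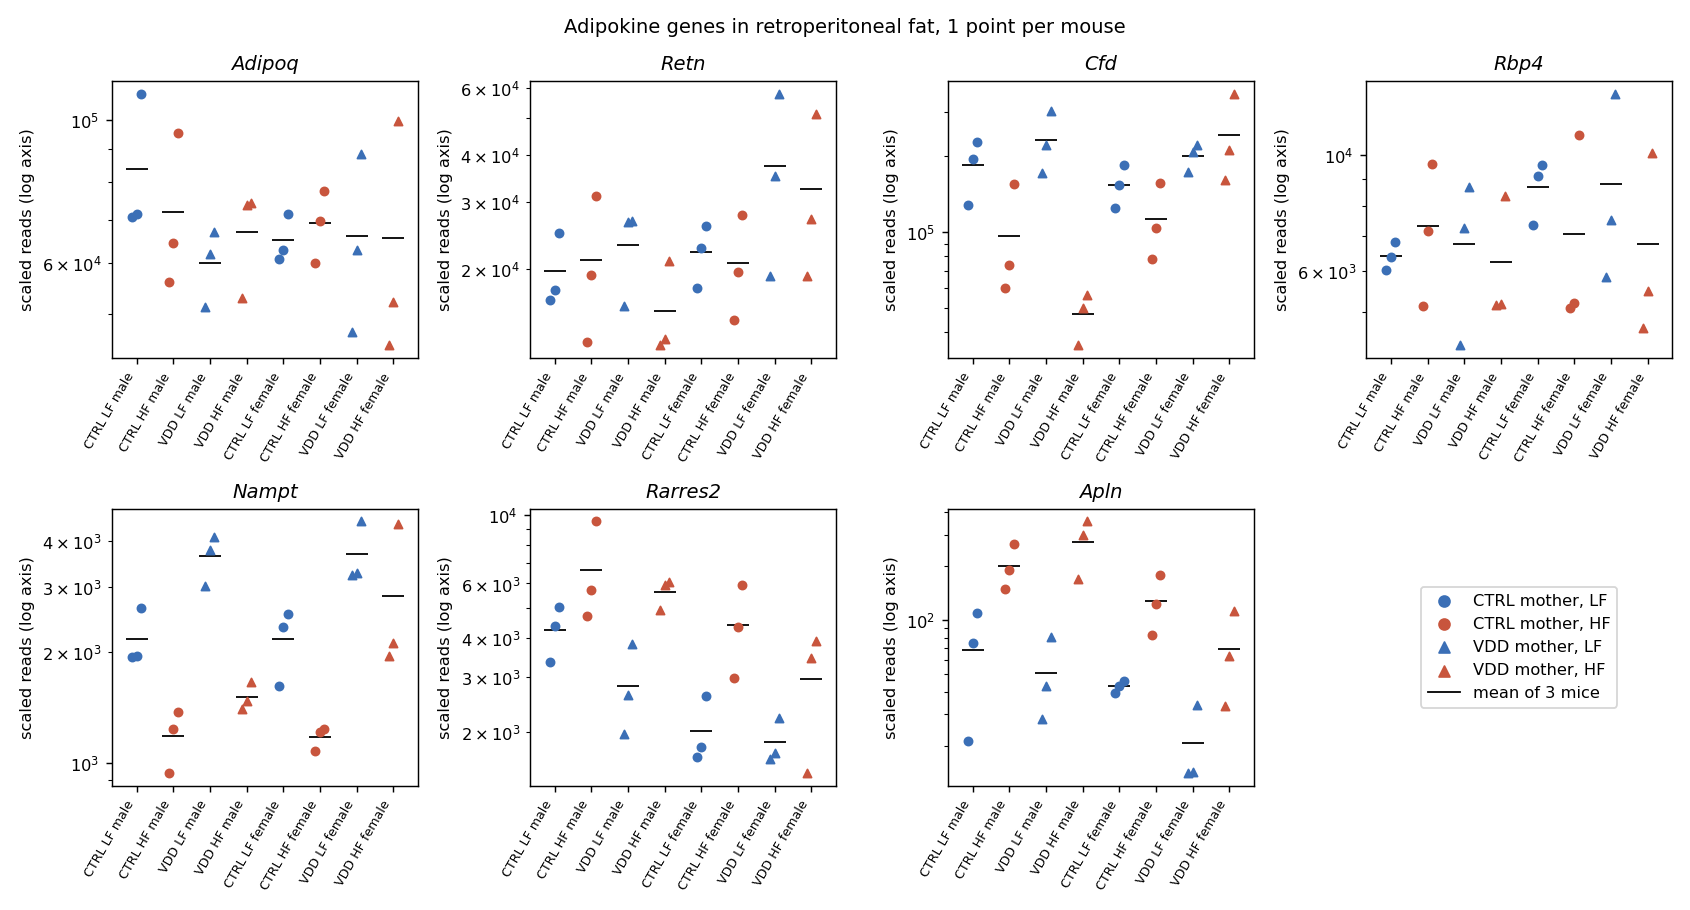
Scaled reads (log axis) of the 7 adipokine genes in the 8 groups, 1 point per mouse, with a line at the mean of 3 mice, circles for CTRL mothers, triangles for VDD mothers, blue for LF and red for HF. Nampt points for VDD mothers sit above those for CTRL mothers in every pair, and Apln is higher on HF than on LF in most pairs.

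Levels of the 7 genes differed widely per length. Cfd had 172147 ± 86207 scaled reads per kb of exon (SD, n = 24), Adipoq 49691 ± 11900, Retn 15221 ± 7050 and Rbp4 5395 ± 1690. Rarres2 had 1439 ± 735, Nampt 454 ± 218 and Apln 34.0 ± 29.9 scaled reads per kb. Cfd alone took 0.954% of all reads on genes, from 0.245% in the lowest library to 2.07% in the highest, and was the 7th most abundant gene by mean scaled reads. The ratio of the highest to the lowest group mean was 13.2 for Apln, 5.14 for Cfd, 3.59 for Rarres2, 3.13 for Nampt and 2.40 for Retn. It was only 1.42 for Rbp4 and 1.40 for Adipoq, and for both genes every group overlapped its neighbour in the order of the means. Groups farther apart in that order could still be separate. For Adipoq, CTRL LF males had 70647 to 109716 scaled reads and VDD LF males 51247 to 67012. The share of all genes separate between those groups was not counted.

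The first question was how the HF diet changed the 7 genes. Averaged over the 4 strata of maternal diet and sex, 4 of the 7 genes passed the test, with 2 lower and 2 higher. Cfd fell by 0.90 on the log2 scale (SE 0.22, 0.54-fold, adjusted p = 0.0045) and Nampt by 0.86 (SE 0.13, 0.55-fold, adjusted p = 9.16e-05). Rarres2 rose by 0.83 (SE 0.17, 1.78-fold, adjusted p = 0.0015) and Apln by 1.85 (SE 0.27, 3.61-fold, adjusted p = 9.03e-05). Adipoq, Retn and Rbp4 did not pass. These are limma values over 18399 genes at adjusted p under 0.05, and 29.2% of all genes tested passed in this contrast, 15.0% higher and 14.2% lower. Bulk RNA cannot tell fewer cells of a type from less RNA per cell.

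**Figure D2:**
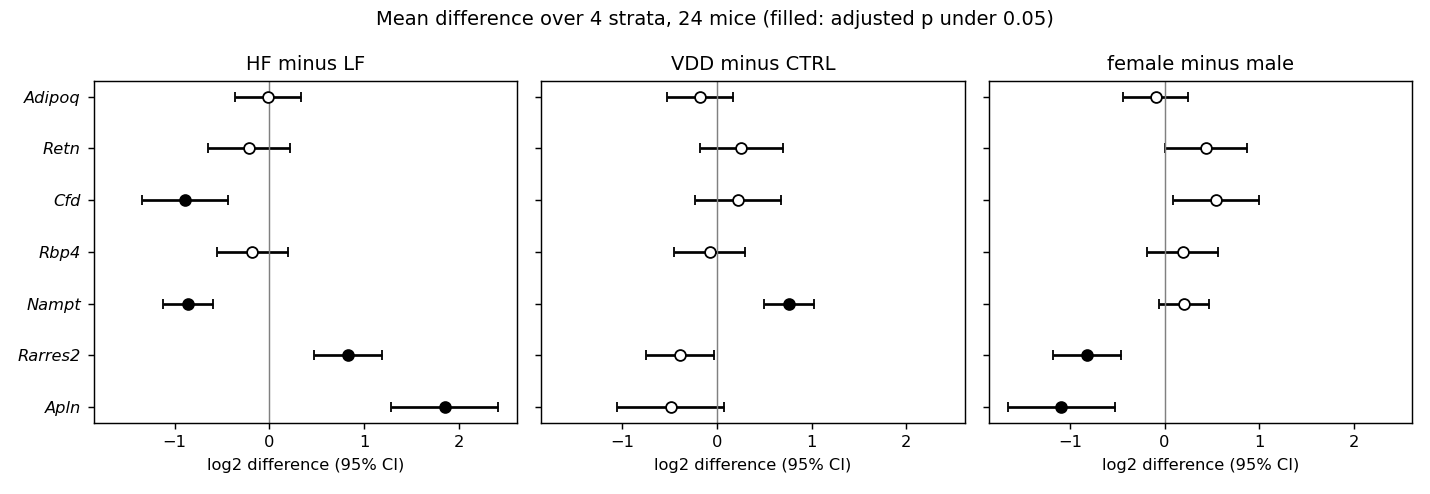
Log2 difference (points) with its 95% confidence interval (bars) for the 7 genes, from 1 model of 24 mice, for HF minus LF, VDD minus CTRL and female minus male, each averaged over 4 strata. Filled points passed at adjusted p under 0.05, with 4 genes for HF, Nampt alone for VDD, and Rarres2 and Apln for sex.

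Nampt fell on the HF diet in each stratum, by 0.46 to 1.26 on the log2 scale. CTRL LF males had 1941, 1945 and 2633 scaled reads and CTRL HF males 938, 1239 and 1377. In VDD males the values were 3021, 3786 and 4096 on LF and 1400, 1474 and 1659 on HF. CTRL LF females had 1619, 2340 and 2538 and CTRL HF females 1076, 1212 and 1239. HF mice were all below LF mice in these 3 strata, a pattern met by 4.59% of genes tested for at least 3 of 4 strata. In VDD females the ranges overlapped, with 3245, 3274 and 4525 on LF and 1950, 2110 and 4451 on HF. Leaving out any 1 mouse kept the fall between 0.81 and 0.96.

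Apln, the least abundant of the 7 genes, rose on the HF diet in each stratum by 1.49 to 2.48 on the log2 scale. Among males, scaled reads were 21.2, 74.3 and 110 in CTRL LF, 150, 190 and 264 in CTRL HF, 28.2, 43.3 and 80.2 in VDD LF and 170, 298 and 356 in VDD HF. Among females they were 39.3, 43.3 and 45.8 in CTRL LF, 82.8, 122 and 179 in CTRL HF, 14.1, 14.4 and 33.8 in VDD LF and 33.3, 63 and 112 in VDD HF. HF mice were all above LF mice except in VDD females, where the lowest HF mouse was just under the highest LF mouse. At least 3 of 4 strata without overlap, higher on HF, were found for 4.52% of genes tested. The order of the 8 group means put both male HF groups first and VDD LF females last, but only the last group was free of overlap with the one before it.

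Rarres2 was higher on HF in every stratum, with mean differences of 0.56 to 1.10 on the log2 scale. Its scaled reads in males were 3359, 4390 and 5045 in CTRL LF, 4697, 5705 and 9510 in CTRL HF, 1969, 2619 and 3831 in VDD LF and 4916, 5950 and 6057 in VDD HF. In females they were 1653, 1785 and 2607 in CTRL LF, 2973, 4347 and 5921 in CTRL HF, 1632, 1703 and 2208 in VDD LF and 1470, 3462 and 3904 in VDD HF. The ranges were separate in VDD males and in CTRL females, and overlapped in CTRL males and VDD females. The share of all genes with as much separation was not counted.

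Cfd was lower on HF in 3 of 4 strata. Scaled reads in males were 128657, 195302 and 227629 in CTRL LF, 60166, 74277 and 155214 in CTRL HF, 171083, 221006 and 303168 in VDD LF and 35464, 49934 and 56181 in VDD HF. VDD HF males were the lowest of the 8 groups, below every other mouse, though narrowly (56181 against 60166 in CTRL HF males). The share of all genes with 1 group separate in this way was not counted. In females the values were 125026, 153240 and 183978 in CTRL LF, 78078, 104266 and 156467 in CTRL HF, 173169, 207020 and 222092 in VDD LF and 161543, 211695 and 354603 in VDD HF, and LF and HF ranges overlapped under both maternal diets. The difference between sexes in the HF response was 1.51 on the log2 scale (SE 0.44, adjusted p = 0.29) and did not pass. Without the 9 libraries rich in Ckm the fall of Cfd on HF was 0.98 but no longer passed (adjusted p = 0.114).

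The 3 genes that did not pass had intervals that included 0. For HF minus LF, Adipoq differed by -0.012 on the log2 scale (95% CI -0.36 to 0.34), Retn by -0.21 (95% CI -0.65 to 0.22) and Rbp4 by -0.18 (95% CI -0.56 to 0.20). Scaled reads over the 24 mice ran from 44740 to 109716 for Adipoq, from 12603 to 57862 for Retn and from 4316 to 13110 for Rbp4, and LF and HF ranges of these genes overlapped in every stratum. With scaling by total reads the sign for Adipoq turned to 0.15, and that scaling moved the median of all genes from 0.014 to 0.17, so neither direction is claimed.

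Macrophage markers rose with the HF diet alongside Rarres2 and Apln. All 6 (Adgre1, Cd68, Csf1r, Mrc1, C1qa, C1qb) passed higher, with a median of 0.73 on the log2 scale against 0.014 for all genes. Their summed level was 2945 to 11060 scaled reads in LF mice and 3554 to 18640 in HF mice. Of 5 endothelial markers 0 passed, with a median of 0.36. Of the 8 white adipocyte markers 2 passed lower, Cidec and Pnpla2, with a median of -0.14, and 6 did not pass. Of 5 stromal progenitor markers 2 passed higher, Col1a1 and Pi16 (median 0.32), and of 4 brown adipocyte markers 1 passed lower, Cidea (median -1.26). The part of these cell types in the 4 adipokine results was not tested.

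Within single comparisons, each fitted with limma on its own 6 libraries, none of the 7 genes was called at the thresholds of the study (fold change above 1.5 or below 0.66 with an adjusted p under 0.01). For LF against HF these limma fits called 0.0578% of genes in CTRL males, 0.0752% in VDD males, 0.0% in CTRL females and 0.0% in VDD females. The study applied its thresholds to DESeq2 results and reported differentially expressed genes in every comparison. The shares given here are those of limma and not the study's counts. In 1 limma fit over the 24 libraries at the same thresholds, which takes the spread from all 8 groups, 863 genes were called in VDD males against 12, and Cfd (adjusted p = 0.0022), Nampt (adjusted p = 0.0031) and Apln (adjusted p = 0.0054) were among them. That fit called none of the 7 in the other comparisons. In the fits of 6 libraries at adjusted p under 0.05 with no fold limit, 3 of the 7 passed in VDD males, where 5.35% of all genes did. There Cfd fell by 2.28 on the log2 scale (SE 0.46, adjusted p = 0.0458), Nampt fell by 1.26 (SE 0.15, adjusted p = 0.0176) and Apln rose by 2.48 (SE 0.46, adjusted p = 0.0374). In CTRL females, where 7.4% of genes passed, Nampt fell by 0.88 (SE 0.18, adjusted p = 0.0348) and Apln rose by 1.47 (SE 0.29, adjusted p = 0.0347). In CTRL males, where 1.17% of genes passed, none of the 7 did, and Nampt came nearest at -0.89 (SE 0.21, adjusted p = 0.078). In VDD females none passed either, with Apln at 1.65 (SE 0.55, adjusted p = 0.84) and Nampt at -0.46 (SE 0.34, adjusted p = 0.85), the latter -0.84 without VDD HF female 2083 and -0.24 without VDD HF female 2121. With 1 mouse left out the adjusted p reached 0.196 for Cfd, 0.0966 for Nampt and 0.162 for Apln in VDD males, and 0.115 for Nampt and 0.11 for Apln in CTRL females.

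The second question was whether vitamin D deficiency of the mother changed these genes in the offspring. Nampt was the 1 gene of the 7 that passed, rising by 0.76 on the log2 scale (SE 0.13, 95% CI 0.50 to 1.03, 1.70-fold, adjusted p = 0.0071). In this contrast 4.59% of all genes passed, and 2.53% passed higher. The rise was seen in each of the 4 strata, with mean differences of 0.37 to 1.17. In LF males CTRL mice had 1941 to 2633 scaled reads of Nampt and VDD mice 3021 to 4096, in HF males 937 to 1377 against 1400 to 1659. In LF females CTRL mice had 1619 to 2538 and VDD mice 3245 to 4525, in HF females 1076 to 1239 against 1950 to 4451. The VDD mice were therefore above the CTRL mice of the same diet and sex without exception in all 4 strata, which held for 7 of the 18399 genes tested (0.038%).

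**Figure D3:**
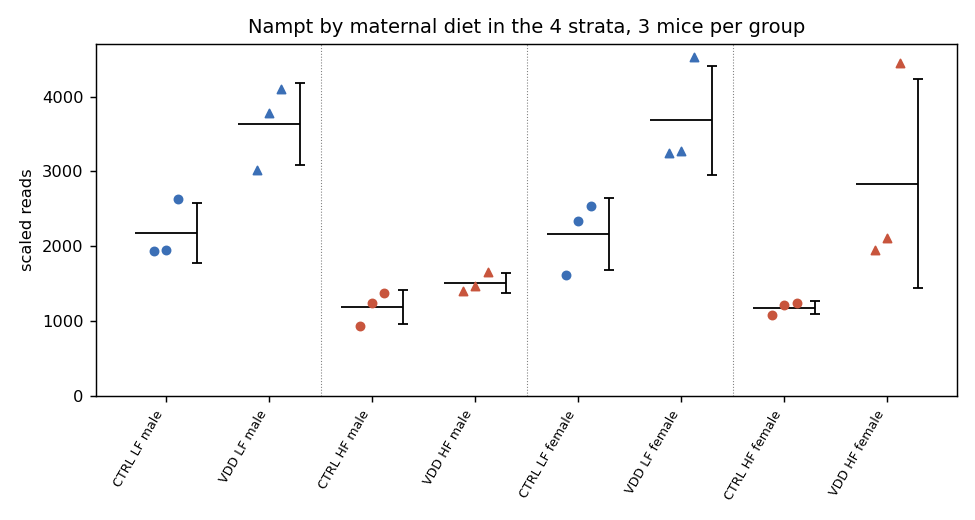
Scaled reads of Nampt for CTRL (circles) and VDD (triangles) offspring in the 4 strata of sex and offspring diet, 1 point per mouse, with the mean and SD of 3 mice. In each stratum the lowest VDD mouse lies above the highest CTRL mouse, most narrowly in HF males (1400 against 1377).

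The rise of Nampt with maternal deficiency stayed between 0.67 and 0.82 with any 1 mouse left out, and passed each time. Without the 6 libraries with renal in their names it was 0.74 (adjusted p = 0.101), and without the 9 libraries rich in Ckm 0.70 (adjusted p = 0.134), where 1 and 5 genes in all still passed. The 8 skeletal muscle markers were higher in VDD than in CTRL mice by a median of 2.71 on the log2 scale, although 0 of 8 passed. Of the macrophage markers 0 of 6 passed (median -0.47), of the white adipocyte markers 0 of 8 (median 0.033) and of the brown adipocyte markers 0 of 4 (median 1.68). Of 5 stromal progenitor markers 2 passed lower, Col1a1 and Pdgfra (median -0.64), and the part of these cells in the Nampt result was not tested.

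The other 6 genes did not pass for maternal diet. Rarres2 differed by -0.39 on the log2 scale (95% CI -0.75 to -0.033, adjusted p = 0.18) and Apln by -0.49 (95% CI -1.05 to 0.076, adjusted p = 0.28). The difference was 0.26 (95% CI -0.18 to 0.69) for Retn, 0.22 (95% CI -0.24 to 0.67) for Cfd, -0.18 (95% CI -0.53 to 0.17) for Adipoq and -0.077 (95% CI -0.45 to 0.30) for Rbp4. Retn values in VDD females spread widely, with 19170, 35061 and 57862 scaled reads on LF and 19232, 27141 and 51080 on HF, against 17865, 22671 and 26009 and 14680, 19671 and 27779 in CTRL females. In limma fits of single comparisons of CTRL with VDD mice, 0.0% of genes and none of the 7 were called in LF males, HF males, LF females or HF females. The study reported differentially expressed genes by DESeq2 in each of these comparisons. Nampt gave 0.76 (SE 0.20, adjusted p = 0.63) in LF males, 0.35 (SE 0.17, adjusted p = 0.94) in HF males, 0.77 (SE 0.22, adjusted p = 0.39) in LF females and 1.18 (SE 0.31, adjusted p = 0.17) in HF females.

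For Cfd the difference between VDD and CTRL mice on the HF diet had opposite signs in the sexes, and neither difference passed. VDD HF males had 35464 to 56181 scaled reads against 60166 to 155214 in CTRL HF males, a difference of -0.95 on the log2 scale (SE 0.43, adjusted p = 0.94) and of -0.54 without CTRL HF male 2127. VDD HF females had 161543 to 354603 against 78078 to 156467 in CTRL HF females, a difference of 1.10 (SE 0.70, adjusted p = 0.47). The ranges did not overlap in either sex, a pattern of opposite separation shared by 0.359% of genes tested. The test of the difference itself, added after the data had been seen, gave 2.02 (SE 0.62, unadjusted p = 0.0039, adjusted p = 0.46), and 0.0% of genes passed.

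**Figure D4:**
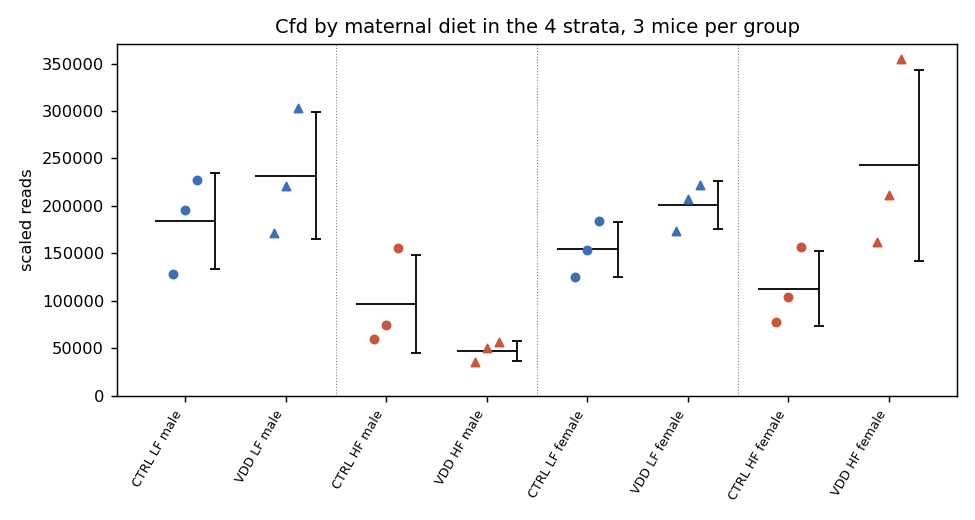
Scaled reads of Cfd for CTRL (circles) and VDD (triangles) offspring in the 4 strata of sex and offspring diet, 1 point per mouse, with the mean and SD of 3 mice. On HF the 3 VDD males lie below the 3 CTRL males and the 3 VDD females above the 3 CTRL females, while on LF the ranges overlap.

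Whether maternal deficiency altered the response to the HF diet was tested as an interaction in each sex. By limma 0.0% of genes passed in males and 0.0% in females, with 755 and 1171 genes at an unadjusted p under 0.05. Among the 7 genes the largest value in males was for Cfd, at -1.27 on the log2 scale (95% CI -2.55 to 0.018, adjusted p = 1.0), and in females also for Cfd, at 0.69 (95% CI -0.59 to 1.98, adjusted p = 0.84). For Nampt the interaction was -0.38 (95% CI -1.13 to 0.37) in males and 0.39 (95% CI -0.35 to 1.14) in females, where it was 0.016 without VDD HF female 2083. The difference between the sexes in the HF response, which 0.0435% of genes passed, was passed by none of the 7.

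The third question was how the sexes differed. Rarres2 was lower in females by -0.82 on the log2 scale (SE 0.17, 0.57-fold, adjusted p = 0.0024) and Apln by -1.09 (SE 0.27, 0.47-fold, adjusted p = 0.0076), each in 4 of 4 strata. In this contrast 19.8% of all genes passed, and 9.04% passed lower in females. For Rarres2 the sexes did not overlap in CTRL LF mice (3359 to 5045 in males, 1653 to 2607 in females) or in VDD HF mice (4916 to 6057 and 1470 to 3904). For Apln they did not overlap in VDD HF mice (170 to 356 in males, 33.3 to 112 in females). In the other strata the sexes overlapped for both genes, and the share of all genes with such separation was not counted. Both calls were lost without the 9 libraries rich in Ckm, at -0.70 (adjusted p = 0.058) for Rarres2 and -0.62 (adjusted p = 0.33) for Apln, and that of Apln also without the libraries with renal in their names (-0.89, adjusted p = 0.13). Macrophage markers moved the same way, with 4 of 6 passing lower in females and a median of -0.70. Of the white adipocyte markers 2 of 8 passed lower in females, Aqp7 and Plin4, and of the 4 mammary epithelium markers tested 3 passed higher, Epcam, Krt8 and Krt18. The part of these cells was not tested. Cfd (0.55, SE 0.22, adjusted p = 0.084), Retn (0.44, SE 0.21, adjusted p = 0.15), Nampt (0.20, SE 0.13, adjusted p = 0.28), Rbp4 (0.19, SE 0.18, adjusted p = 0.49) and Adipoq (-0.095, SE 0.17, adjusted p = 0.73) did not pass.

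Receptors and other partners of the 7 proteins were followed in a list of 37 genes, of which 35 could be tested in the 24 mice. With the HF diet 8 passed higher and 3 lower, against 15.0% and 14.2% of all genes tested, with a median of 0.12 on the log2 scale against 0.014 for all genes. Aplnr, the apelin receptor, rose by 1.40 (SE 0.22, adjusted p = 0.00015), from 148 to 187 scaled reads in CTRL LF males to 516 to 840 in CTRL HF males. It had 44.5 to 272 in VDD LF males and 510 to 955 in VDD HF males, and 224 to 250 in VDD LF females and 374 to 691 in VDD HF females. The LF and HF ranges of Aplnr overlapped only in CTRL females, at 394 to 663 and 419 to 743. Of all genes tested, 4.52% had HF mice all above LF mice in at least 3 of the 4 strata. Adipor2, an adiponectin receptor, fell by 0.63 (SE 0.10, adjusted p = 0.00024), while Adipor1 gave -0.24 (SE 0.097, adjusted p = 0.076). Cap1, a reported resistin receptor, rose by 0.34 (SE 0.065, adjusted p = 0.00082). Stra6l, a receptor for retinol-binding protein, rose by 1.53 (SE 0.30, adjusted p = 0.0011), but from at most 8.95 scaled reads on LF to at most 29.7 on HF. Its group means went from 0.75 to 6.16 in CTRL males and from 0.76 to 16.5 in VDD males. In females they went only from 4.98 to 7.23 under CTRL and from 3.49 to 4.53 under VDD, with overlapping ranges. Stra6, the other receptor of that protein, gave 0.29 (SE 0.55, adjusted p = 0.74). Cmklr1, the chemerin receptor, gave -0.37 (SE 0.16, adjusted p = 0.094). Sirt1, an NAD-dependent deacetylase, fell by 0.48 (SE 0.10, adjusted p = 0.0017). The calls of Aplnr, Adipor2, Cap1, Stra6l and Sirt1 were kept without the libraries with renal in their names. Without those rich in Ckm the differences were 1.06 for Aplnr, -0.64 for Adipor2, 0.44 for Cap1, 1.29 for Stra6l and -0.57 for Sirt1. That fit rests on VDD LF male 2078 and VDD HF male 2308 alone for the VDD males.

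Among the NAD genes, Nmnat1, which makes NAD from the product of Nampt, was the 1 of 35 list genes to pass for maternal diet, which 4.59% of all genes did. It was higher in VDD mice by 0.45 on the log2 scale (SE 0.094, adjusted p = 0.016), but did not pass without the libraries with renal in their names (0.45, adjusted p = 0.109) or without those rich in Ckm (0.43, adjusted p = 0.203). Its scaled reads were 153 to 213 in CTRL LF males against 197 to 287 in VDD LF males, and 141 to 183 against 163 to 235 on HF. In females they were 180 to 224 against 220 to 307 on LF and 162 to 187 against 225 to 287 on HF. The ranges overlapped in both male strata, and on LF in females by 1 mouse of each group. None of the list passed in the 8 single comparisons or in the 3 interactions.

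Mice of 1 group that were high in Adipoq were also high in Retn and Rbp4. After subtracting group means, Pearson's r over the 24 mice was 0.917 for Adipoq with Retn (Spearman's rho 0.912), 0.901 for Retn with Rbp4 (rho 0.894) and 0.795 for Adipoq with Rbp4 (rho 0.818). Without the 2 mice farthest from the median these were 0.891, 0.863 and 0.715. The lowest of the 21 pairs was Nampt with Apln, at -0.554 within groups (rho -0.510) and -0.795 with groups left in. The points share the scaling of each library, so these values describe the 24 libraries and carry no test.

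**Figure D5:**
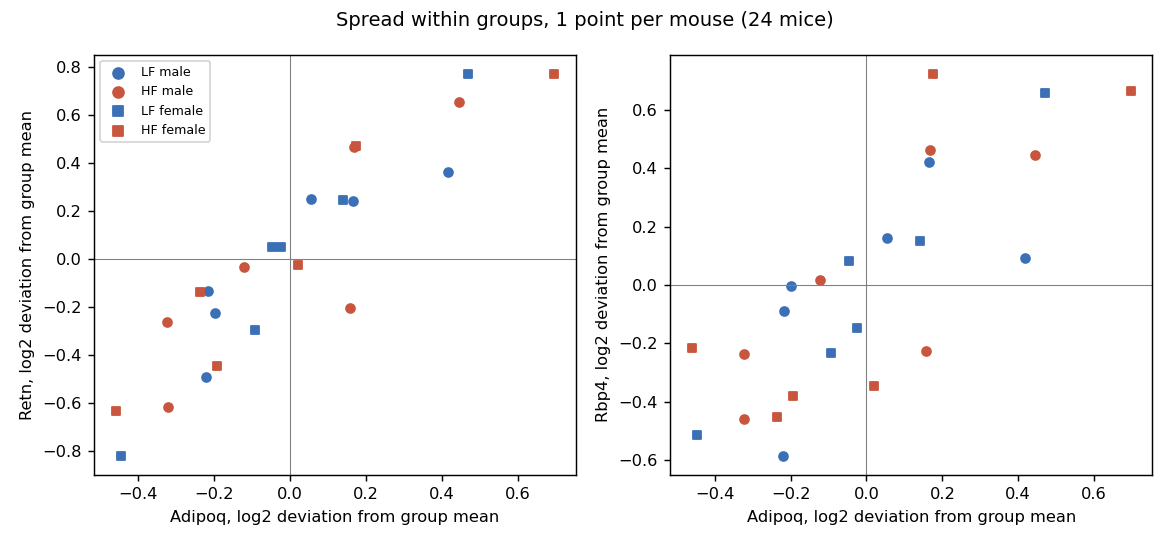
Deviation of each mouse from its group mean on the log2 scale for Adipoq (horizontal) against Retn (left) and Rbp4 (right), 1 point per mouse, with circles for males, squares for females, blue for LF and red for HF. The points rise together, with r of 0.917 for Retn and 0.795 for Rbp4.

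Among 10813 genes with a mean of at least 100 scaled reads, the pattern most like each member over the 24 libraries was found by Pearson's r of log2 values, group differences included. For Nampt these were Grsf1 (0.942), Rabggtb (0.933) and Glul (0.915), and for Rarres2 Camk1 (0.936), Myl12a (0.913) and Jpt1 (0.912). For Cfd they were Hsd17b10 (0.905), Fance (0.895) and Kyat3 (0.887), and for Apln D430019H16Rik (0.902), Gramd4 (0.901) and Hist1h2be (0.895). Retn was most like Dnajc4 (0.904), Proca1 (0.877) and Gstz1 (0.876), and Adipoq most like Tmem59 (0.894), Cd302 (0.858) and 2610016A17Rik (0.822). Rbp4 had the weakest likeness, with Car3 (0.787), Nelfe (0.772) and Retn (0.768).

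Leptin itself (Lep), measured in the same libraries, rose by 2.50 on the log2 scale with the HF diet (SE 0.29, adjusted p = 1.33e-05). In single comparisons of LF with HF, Lep was not called by limma at the thresholds of the study under either maternal diet in either sex. At adjusted p under 0.05 with no fold limit it passed in VDD males by limma, with a rise of 5.57 (adjusted p = 0.0146). The rises of 0.96 in CTRL males, 2.53 in CTRL females and 0.93 in VDD females did not pass there either. The difference between the sexes in the HF response of VDD mice, added after the data had been seen, was -4.64 for Lep (SE 0.82, adjusted p = 0.028). It had 117 to 629 scaled reads in VDD LF males and 14378 to 15908 in VDD HF males.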

How the data were processed

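Retroperitoneal fat RNA of 24 mice was sequenced. After trimming with Sickle, the authors mapped reads with STAR 2.7.0d, assembled further transcripts with Cufflinks 2.2.1, counted with featureCounts 1.6.1 on an annotation built from GENCODE (mm10 in the submitters' processing notes) and compared groups with DESeq2. The deposited tables, 1 per comparison, hold log2(normalized reads + 1) of 6 libraries. The authors' columns of the mean over all libraries, fold changes with errors, and raw and adjusted p-values were not used.

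Whole reads were regained from these values (100% whole within 0.02) and the 24 libraries were scaled together by the median of ratios. Each comparison was fitted to its own deposited table with limma 3.58.1 in R 4.3.3 (lmFit, eBayes with trend), keeping genes that reached 10 normalized reads in 3 or more libraries. The 3 averages over strata and 3 interactions came from 1 limma model of 8 group means on log2(scaled reads + 1). P-values were adjusted by Benjamini-Hochberg over all genes tested. Because 3 mice per group were sequenced, small changes could be missed, and at 13346779 or more reads per library Apln, at 14 to 356 scaled reads, carries the largest relative counting error of the 7 genes. The script was tested on simulated data.

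The 7 members and the partner and marker lists were chosen with earlier results of these data known. All 7 members are named in every contrast. Of the partner list, the receptors and at most 10 called genes by smallest p are named. For each member the 3 most similar genes are named. Leaving out libraries with renal in their names or over 1000 scaled reads of Ckm, and the tests of sex differences within a diet, were added after seeing the data. Sequences are from RefSeq. RefSeq promoter entries were matched for 6 of the 7 members, Rarres2 not among them, and Rbp4 has 2. Levels per kb divide by the union of GENCODE M21 exons.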

Additional observations from a re-analysis of the deposited data

Results flagged for a closer look

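Cfd, the gene of adipsin, was picked out because the difference between VDD and CTRL mice on the HF diet had opposite signs in males and females. Neither difference passed. The 3 VDD HF males were below the 3 CTRL HF males and the 3 VDD HF females above the 3 CTRL HF females. The difference between the sexes was 2.02 on the log2 scale (SE 0.62, limma, unadjusted p = 0.0039, adjusted p = 0.46), and ranged from 1.61 to 2.30 with 1 mouse left out. On the LF diet the same difference was 0.058 (SE 0.62). The female minus male difference in the HF response of VDD mice was 2.49 (SE 0.62, unadjusted p = 0.00067, adjusted p = 0.087) and did not pass. It passed with scaling by total reads (2.29, adjusted p = 0.045), which moved the median of all genes in this contrast to -0.21. It also passed without VDD LF male 2310 (2.68, adjusted p = 0.040). With any other mouse left out it did not pass, and the adjusted p by limma reached 0.23. Nor did it pass by limma-voom or without the libraries with renal in their names. These tests between the sexes were added after seeing the data.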

How the results depend on the processing

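No paired analysis was possible because the library columns carry an animal number and no replicate number. Over the settings tried, the 7 called results kept their direction, and with 1 mouse left out each of them passed every time. The number of the 7 genes called stayed at 4 for the HF diet and 1 for maternal diet with any mouse left out, and was 2 to 3 for sex, where Cfd passed without CTRL HF male 2127 (0.65, adjusted p = 0.033). It became 3 for HF against LF in VDD males at adjusted p under 0.05 with no fold limit and also in 1 fit over 24 libraries, and 2 in CTRL females at adjusted p under 0.05. Without the libraries with renal in their names it was 0 for maternal diet and 1 for sex, and without those over 1000 scaled reads of Ckm it was 0 for both. These fits hold 18 and 15 libraries, and the second leaves 1 mouse in each of the VDD LF and VDD HF male groups. With scaling by total reads the genes called for the HF diet split into 4632 higher and 1152 lower, against 2755 and 2612, those for maternal diet into 227 and 731 against 466 and 378, and those for sex into 2180 and 1063 against 1988 and 1663. That scaling moved the median of all genes to 0.17, -0.13 and 0.040. It also let Cfd pass for sex (0.58, adjusted p = 0.034), as did limma-voom (0.55, adjusted p = 0.044). Signs turned only for values that passed under neither setting, and the cause was not tested. With scaling by total reads, the sign turned for Rbp4 (0.15) in HF against LF of VDD males, Retn (0.054) in HF against LF of CTRL females, Rbp4 (-0.038) in VDD against CTRL of LF males, Adipoq (0.15) in the HF average, Adipoq (-0.052) and Rarres2 (-0.094) in the sex difference of the HF response. Without the libraries with renal in their names, the sign turned for Rbp4 (0.24) in HF against LF of VDD males, Rbp4 (-0.22) in VDD against CTRL of LF males, Apln (-0.019) in VDD against CTRL of HF males, Adipoq (0.16) and Rbp4 (0.10) in VDD against CTRL of LF females, Adipoq (-0.23) and Retn (-0.41) in the sex difference of the HF response, Apln (-0.047) in the diet interaction of females. Without the libraries over 1000 scaled reads of Ckm, the sign turned for Adipoq (0.12) in the HF average, Rbp4 (0.15) in the sex difference of the HF response, Adipoq (0.27), Retn (0.52), Rbp4 (0.18) and Nampt (-0.11) in the diet interaction of females. With a pseudocount of 10, the sign turned for Apln (-0.026) in the diet interaction of females. With 1 mouse left out, further values took both signs, over the ranges given here. For Adipoq these were -0.49 to 0.082 in VDD against CTRL of HF females, -0.26 to 0.13 in VDD against CTRL of HF males, -0.035 to 0.16 in HF against LF of CTRL females, -0.26 to 0.21 in VDD against CTRL of LF females, -0.10 to 0.046 in the HF average, -0.49 to 0.10 in the diet interaction of females, -0.12 to 0.17 in the sex difference of the HF response, and -0.41 to 0.19 in HF against LF of VDD females. For Apln these were -0.94 to 0.21 in VDD against CTRL of LF males, and -0.27 to 0.59 in the diet interaction of females. For Cfd these were -0.11 to 0.45 in HF against LF of VDD females. For Rarres2 these were -0.41 to 0.11 in VDD against CTRL of HF males, -0.24 to 0.094 in VDD against CTRL of LF females, and -0.12 to 0.23 in the sex difference of the HF response. For Rbp4 these were -0.37 to 0.33 in VDD against CTRL of HF females, -0.085 to 0.37 in HF against LF of CTRL males, -0.38 to 0.21 in VDD against CTRL of LF females, -0.18 to 0.32 in VDD against CTRL of LF males, -0.34 to 0.36 in the diet interaction of females, -0.39 to 0.12 in HF against LF of VDD males, and -0.16 to 0.013 in the maternal diet average. For Retn these were -0.40 to 0.076 in HF against LF of CTRL females, -0.31 to 0.33 in HF against LF of CTRL males, -0.46 to 0.34 in the diet interaction of females, -0.089 to 0.31 in the sex difference of the HF response, and -0.59 to 0.21 in HF against LF of VDD females.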

Other observations

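Of the 35 partner genes of the adipokines tested, 6 passed higher and 5 lower in females by limma, where 19.8% of all genes passed, and the median was -0.046 on the log2 scale. Masp1, a protease that activates pro-adipsin, was higher in females by 1.31 (SE 0.15, adjusted p = 8.18e-06), with 23.4 to 36.3 scaled reads in males and 40.2 to 147 in females. Naprt, which starts NAD synthesis from nicotinic acid, was higher by 0.75 (SE 0.087, adjusted p = 8.47e-06). Cdh13, which encodes T-cadherin, a protein that binds adiponectin, was lower by -0.77 (SE 0.12, adjusted p = 0.00014). Ttr, the transthyretin that binds retinol-binding protein in blood, was higher by 1.98 (SE 0.43, adjusted p = 0.0029), but at no more than 28.2 scaled reads in any mouse. Cdh13 did not pass without the libraries rich in Ckm (-0.51, adjusted p = 0.050), nor Ttr without those with renal in their names (1.88, adjusted p = 0.063). The chemerin receptor Ccrl2 and the complement receptor C3ar1 were among those that passed lower, and the other receptors named here did not pass for sex. Stra6 gave 1.47 (SE 0.55, adjusted p = 0.068), Stra6l 0.54 (SE 0.30, adjusted p = 0.23) and Aplnr 0.46 (SE 0.22, adjusted p = 0.15). Cmklr1 gave -0.27 (SE 0.16, adjusted p = 0.26), Adipor2 -0.20 (SE 0.10, adjusted p = 0.20) and Adipor1 -0.15 (SE 0.097, adjusted p = 0.29).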
